A study of Homo sapiens with 6 samples.

Results

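HNRNPA1, HNRNPA2B1, HNRNPA3, HNRNPAB, HNRNPD and HNRNPDL encode the hnRNP A, B and D family of RNA-binding proteins. Their splicing was read from the tables of retained introns and skipped exons of a knockdown of SFSWAP, a nuclear protein that resembles splicing factors of the SR kind. The members described here are the table rows that carry the symbol of one of these 6 genes and have a mean of at least 20 junction reads per library. There were 255 such rows, 59 introns and 196 exon events, among 114030 rows with that minimum in the series. Before the minimum the 6 genes had 60 intron rows and 256 exon rows. Just inside the minimum were an HNRNPA1 intron with a mean of 21.5 reads (kept at 98.2% in siNT and 95.6% in siSFSWAP) and an HNRNPA3 exon event with 23.3 (100 and 93.9%), and just outside it were an HNRNPA1 intron with 15.2 (97.8 and 93.7%) and an HNRNPA2B1 exon event with 19.5 (100 and 83.7%). Here siNT is the control and siSFSWAP the knockdown. An exon event is an exon together with the exon ends on either side of it, so 1 exon can appear in several events.

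All libraries came from the human embryonic kidney line HEK293A-TOA, given siRNA and no inhibitor. The siNT group was transfected with non-target siRNA (n = 3 libraries) and the siSFSWAP group with 40 nM of a mix of 2 siRNAs against SFSWAP (n = 3 libraries). RNA was collected 5 days after transfection, and polyadenylated RNA was sequenced from 1 end. Both siRNAs were given together, so effects of the knockdown and of either siRNA alone cannot be told apart. With its western blot of SFSWAP for these samples, the study describes 1 of the 2 siRNAs as not effective.

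The proteins of this family have RNA recognition motifs, bind pre-mRNA and mRNA widely, and act in splicing, export and stability of their targets. Several of these genes are known to regulate their own mRNA through alternative splicing past the stop codon. An intron spliced out well downstream of a stop codon can mark an mRNA for nonsense-mediated decay (NMD), the pathway that degrades such transcripts. The study sequenced these cells to learn what part SFSWAP has in splicing, and the comparison here asks how the introns and exons of these 6 genes differed between siSFSWAP and siNT.

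The value given for each intron or exon is its inclusion, the share of the inclusion form among the inclusion and skipping junction reads of that event. These reads were corrected for the number of read positions each form offers. Reads of other forms of the gene are left out, so inclusion is not a share of all transcripts of the gene. An intron kept, or an exon included, at a given percentage refers to this value. Means are given ± SD over the 3 libraries of a group, and every change is siSFSWAP minus siNT in percentage points. A change was called when the adjusted p of a quasi-binomial test over the whole table was at most 0.05 and the mean inclusion changed by at least 20 points. Genome positions are on GRCh38, and transcripts are those of GENCODE release 44. MANE Select is the reference transcript that RefSeq and Ensembl agree upon for each gene.

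The libraries are named a, b and c within each group by their order in the tables. SFSWAP itself had 79.7, 86.5 and 80.2 counts per 1000000 spliced reads (CPM) in siNT and 34.7, 34.6 and 21.3 in siSFSWAP, a drop to 36.8% (log2 change -1.46, SE 0.16, limma adjusted p = 0.000354), so the group taken as siSFSWAP carried the lower SFSWAP. The retained intron table held 2767079 to 7465949 junction reads per library and that of skipped exons held 19515010 to 55274283, with siNT a the deepest in both. In intron inclusion, siNT a was also closer to all 3 siSFSWAP libraries than to siNT b or siNT c. The median absolute differences were 0.603, 0.805 and 0.761 points to siSFSWAP a, b and c, and 0.821 and 0.879 to siNT b and c. In exon inclusion only siSFSWAP a (0.546 points) was closer to siNT a than siNT b and c were (0.625 and 0.675). Member results that changed their call without siNT a are given both ways. Of 10 genes fixed as markers of HEK293 cells, 4 had at least 1 CPM (summed level 441 to 535 in siNT, 381 to 447 in siSFSWAP) and NEFM, NEFL, INA, LHX1, PAX2 and EYA1 were at 0. None of 4 leukocyte, 4 fibroblast and 3 hepatocyte markers reached 1 CPM in the mean. Spliced reads were counted in skipped exon events only, so a gene without such an event is at 0 whatever its expression.

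The sequences of the splice sites on which the HNRNPA2B1 and HNRNPA1 results turn are shown first, as RNA-strand DNA with 3 exonic bases and 6 or 20 intronic bases, from GRCh38. Capitals mark the GT that opens an intron and the AG that closes it. In HNRNPA2B1 a single donor, at the end of the exon with the stop codon, was joined to 4 different acceptors, and a second donor inside the last exon was joined to the farthest of them:
donor of the stop codon exon (chr7:26192489-26192497, minus strand): tggGTaagt
acceptor of the last exon (chr7:26192336-26192358, minus strand): ctttacttctgttgaaacAGgct
first internal acceptor (chr7:26191648-26191670, minus strand): aaggagaaacacctttttAGatc
second internal acceptor (chr7:26191126-26191148, minus strand): tttccctgccggaattttAGcat
internal donor (chr7:26190987-26190995, minus strand): atgGTaggt
distal acceptor (chr7:26190458-26190480, minus strand): ctttttttttcctttggcAGgaa
Of the 20 intronic bases at each acceptor, 12 were pyrimidines at the last exon, 8 and 13 at the first and second internal acceptors, and 16 at the distal acceptor.

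In HNRNPA1 a single donor was joined to either of 2 acceptors that lie 18 nt apart:
donor (chr12:54283965-54283973, plus strand): aagGTatgg
upstream acceptor (chr12:54284220-54284242, plus strand): gcactttgaaactttaaaAGaaa
downstream acceptor (chr12:54284238-54284260, plus strand): agaaaaattgtacttttcAGgtg
The 20 intronic bases held 9 pyrimidines at either acceptor.

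Of the 59 introns of the family, 39 could be tested. The other 20 had too few reads of 1 form, and all 20 had a siNT inclusion of at least 90%. HNRNPA2B1 had 1 intron with lower inclusion in siSFSWAP, HNRNPA1 had 1 with higher inclusion, and the remaining 37 were not called. Among all 10155 tested introns 1.61% were called lower and 0.148% higher (163 and 15 introns, which were 498 and 44 without siNT a). By the adjusted p alone 3 of the 39 passed, against 3.22% of all tested introns. The median change of the 39 introns was 0.09 points (-0.52 points over all tested introns), and 33 of 39 changed by less than 5 points.

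Of the 196 exon events, 99 on 83 exons could be tested. Of the other 97, 86 had a siNT inclusion of at least 90% and 11 of at most 10%. The 5 events called lower were all in HNRNPA2B1 and all past the stop codon, and none of the 99 was called higher. The background was 0.655% called lower and 1.44% called higher among all 48100 tested exon events, counts that moved when single libraries were left out (133 to 353 lower against 315, and 163 to 1509 higher against 692, the 1509 without siNT a). At an unadjusted p under 0.05 there were 34 of the 99, against 19.8% of all tested events, and 17 passed the adjusted p alone, against 5.42% of all tested events. The 17 are not separate changes. They were 8 in HNRNPA2B1, 3 in HNRNPA1, 3 in HNRNPD, 2 in HNRNPDL and 1 in HNRNPAB, and within each gene they share a single skipping junction. The members had far more reads than the other rows, with a median of 1887 per library against 98.8 for exon events and 823 against 98.7 for introns. The median change of the 99 events was -0.12 points (0.30 over all tested events), and 85 of 99 changed by less than 5 points.

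**Figure D1:**
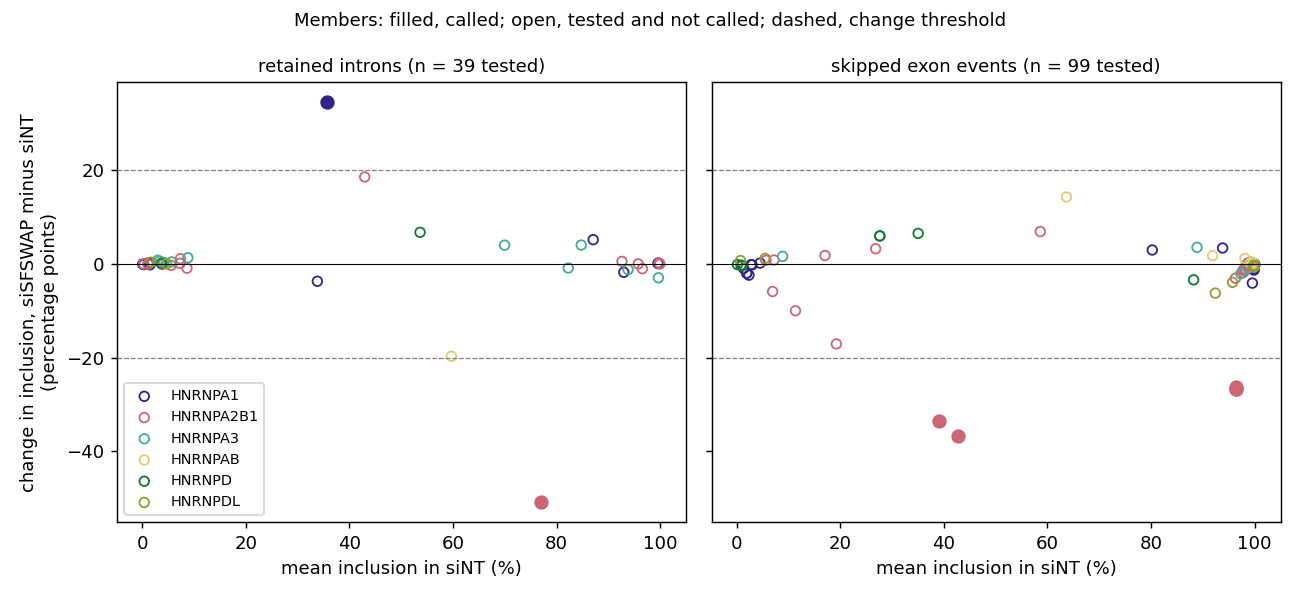
Change in inclusion (percentage points, siSFSWAP minus siNT) against mean siNT inclusion (%) for the 39 tested introns (left) and 99 tested exon events (right) of the 6 genes, 1 point per event and 1 colour per gene. Filled points are called, and the dashed lines mark the threshold of 20 points. Most points sit near 0, while 1 HNRNPA2B1 intron lies at -50.9 points, 1 HNRNPA1 intron at 34.5, and the 5 filled exon events all belong to HNRNPA2B1.

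By position, 12 introns with enough reads lay past the stop codon of the MANE Select transcript, 8 of them in HNRNPA2B1, 2 in HNRNPA3 and 1 each in HNRNPD and HNRNPDL. Of these, 9 were tested and 1 was called lower, while among all tested introns past a MANE Select stop codon 4 of 145, 2.76%, were called lower. A further 7 introns of HNRNPA1 lay past the stop codon of a single short coding transcript, HNRNPA1-238, and not past that of the MANE Select transcript. Past the MANE Select stop codon there were also 30 exon events, 23 of them tested, and 13 of those 23 were in HNRNPA2B1. The 5 called are among 8 called lower of 163 tested exon events past a MANE Select stop codon in all genes, 4.91%. All 76 tested exon events elsewhere in the 6 genes were uncalled. Of exon events annotated in NMD transcripts and in no coding transcript, 25 were tested and 5 were called, the same 5 HNRNPA2B1 events, which share a single skipping junction. Over all genes 0.926% of such tested events were called lower.

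HNRNPA2B1 (ENSG00000122566.22, chromosome 7, minus strand, 26189927 to 26200746) encodes hnRNP A2 and B1, which differ by 1 short exon near the start of the protein. GENCODE lists 49 transcripts of it, 7 coding and 35 as NMD targets. In the MANE Select transcript the stop codon lies in exon 10 (26192495 to 26192577) and a 156 nt intron separates it from the last exon (26189927 to 26192338), which holds nearly all of the 3′ UTR. Within that last exon, other transcripts use the internal acceptors, the internal donor and the distal acceptor shown above. The rows of this gene past the stop codon describe these choices.

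The called intron of HNRNPA2B1 ran from the donor of the stop codon exon to the distal acceptor (26190461 to 26192494, 2034 nt, 22 to 2055 nt past the stop codon). Its inclusion was 76.1, 75.8 and 79.2% in siNT and 30.0, 25.5 and 22.9% in siSFSWAP. The 3 siSFSWAP libraries were all far below the 3 siNT libraries, with means of 77.0% ± 1.86 and 26.1% ± 3.62. The change of -50.9 points had a quasi-binomial adjusted p of 2.9e-08, and it was between -52.8 and -49.3 points with each library left out in turn, called in 6 of 6. On log2 odds with limma the same change had an adjusted p of 0.060. Among all tested introns 3 fell by more and none had a smaller adjusted p. No transcript of GENCODE release 44 contains this intron as such, although both of its splice sites are annotated in other pairings. The junction that skips this intron starts 21 nt past the stop codon, at a donor that the MANE Select transcript also uses. The internal donor lies 1523 nt past the stop codon.

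The reads behind this value moved in 1 form. Junction reads that skip the whole intron, from the stop codon exon to the distal acceptor, numbered 89, 38 and 30 in siNT and 431, 317 and 435 in siSFSWAP. Scaled to reads per 1000000 junction reads of the retained intron table (RPM) they were 11.9, 11.9 and 10.6 in siNT and 96.8, 114.6 and 138.6 in siSFSWAP, a mean 10.2-fold higher. Reads across the intron's boundaries were 75.9, 74.4 and 80.6 RPM in siNT and 83.1, 78.4 and 82.2 in siSFSWAP, so here the groups overlapped. The fall in inclusion thus came with more skipping reads and nearly level boundary reads.

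Boundary reads of this intron do not all come from RNA that keeps it whole. Its distal end lies inside the ordinary last exon, and its stop codon end is shared with the 156 nt intron. The reads across both ends of a 532 nt intron that shares the distal acceptor set an upper limit on those at the distal end. At most 176, 54 and 52 boundary reads in siNT and 159, 97 and 98 in siSFSWAP were at the distal end, which leaves at least 391, 184 and 176 in siNT and 211, 120 and 160 in siSFSWAP at the stop codon end.

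The choice of acceptor shows the change more directly. From the donor of the stop codon exon, 1.83, 1.87 and 1.78% of junction reads to the 4 acceptors went to the distal one in siNT, and 14.8, 17.0 and 21.3% in siSFSWAP. The junction to the ordinary last exon took 97.2% ± 0.05 in siNT and 81.3% ± 3.29 in siSFSWAP. It had 4726, 1974 and 1640 reads in siNT and 2456, 1527 and 1585 in siSFSWAP, or 610 ± 27.3 and 536 ± 26.9 RPM. The internal acceptors were used rarely in either group, the first by 1.77 ± 0.93 and 2.28 ± 0.54 RPM and the second by 4.24 ± 1.23 and 4.19 ± 0.45. The distal acceptor was also reached from the internal donor, by 13.0 ± 1.36 RPM in siNT and 10.6 ± 0.97 in siSFSWAP. Of the reads at the distal acceptor from these 2 donors, the stop codon exon gave 48.1, 45.2 and 47.6% in siNT and 89.4, 91.4 and 93.5% in siSFSWAP.

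**Figure D2:**
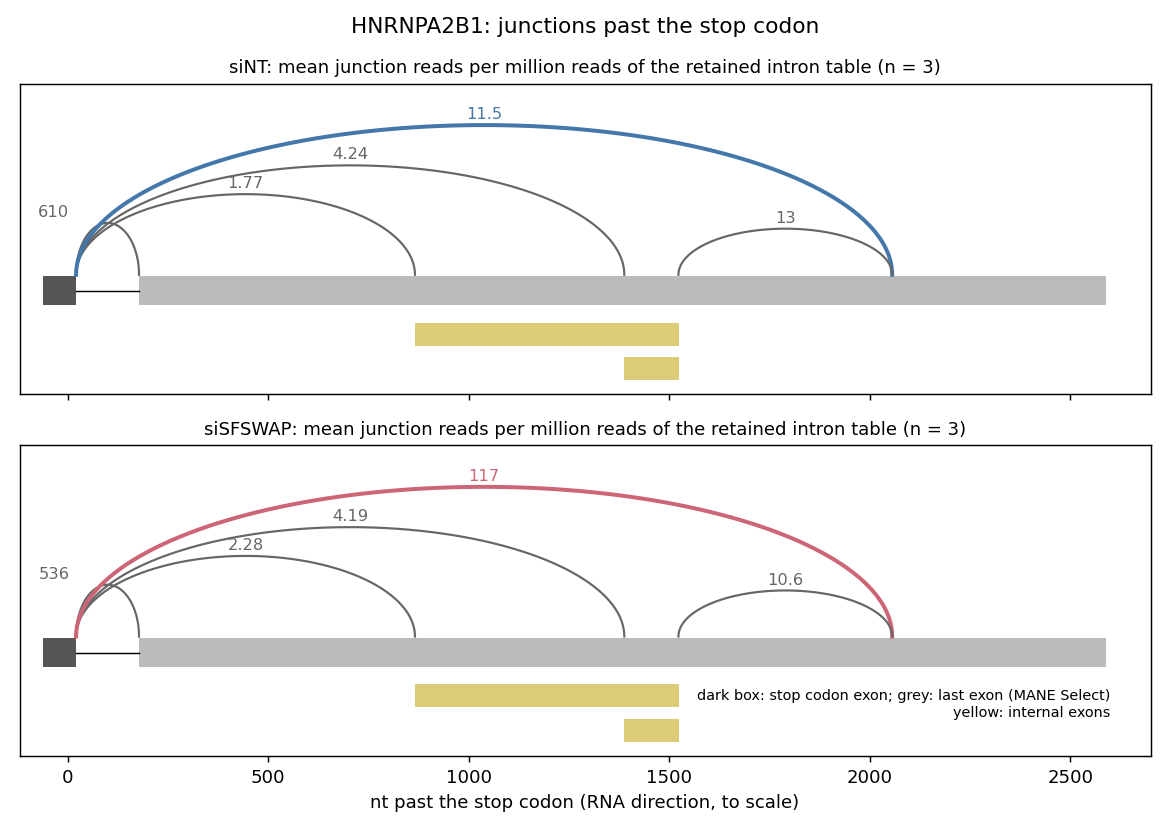
Junctions past the HNRNPA2B1 stop codon, drawn to scale in nt from the stop codon, for siNT (upper panel) and siSFSWAP (lower panel). Each arc is a junction with its mean RPM (n = 3), the dark box is the stop codon exon, the grey box the ordinary last exon and the yellow boxes the internal exons. Arc heights carry no value, and the number at the left belongs to the shortest arc. The coloured arc, from the stop codon exon to the distal acceptor, carries 11.5 RPM in siNT and 117 in siSFSWAP, while the arcs into the internal exons differ little.

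**Figure D3:**
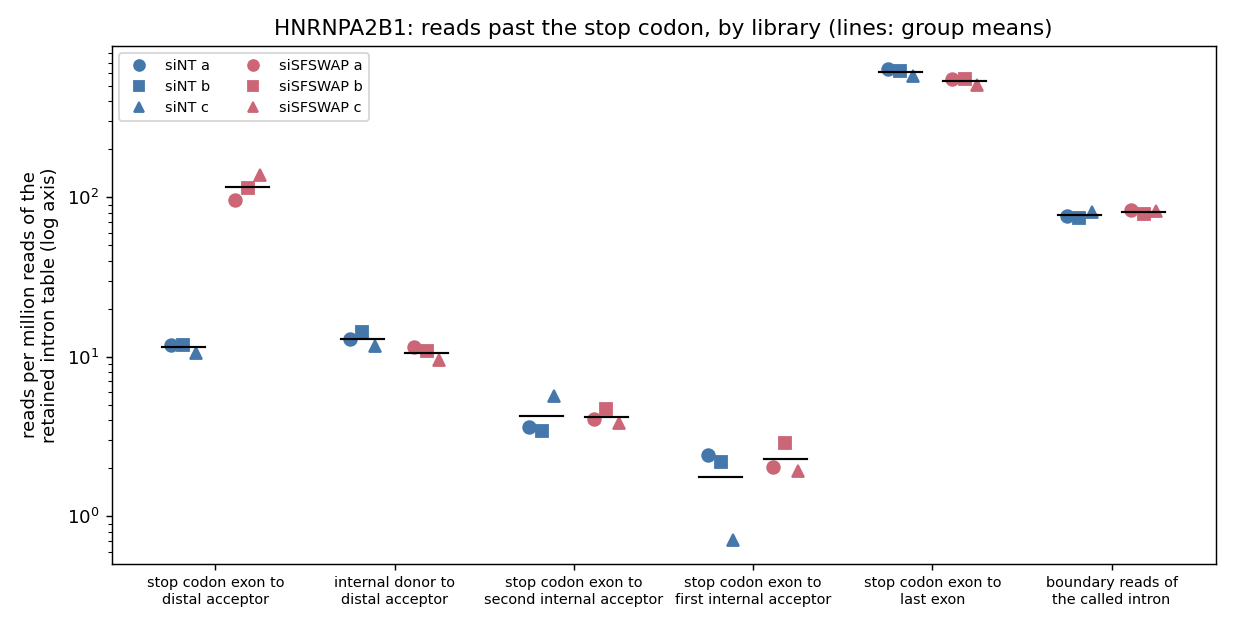
Reads of 5 HNRNPA2B1 junctions and of the boundaries of the 2034 nt intron in each library, in RPM on a log axis, with lines at the group means. The leftmost junction is the one whose groups lie far apart (10.6 to 11.9 in siNT, 96.8 to 138.6 in siSFSWAP), and boundary reads lie between 74.4 and 83.1 in all 6 libraries.

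The exons inside this intron were read against the same skipping junction, so their calls are not independent of the intron's call. The exon from the second internal acceptor to the internal donor (26190993 to 26191128, 136 nt, in 9 NMD transcripts and no coding one) had an inclusion of 40.9, 42.9 and 44.4% in siNT and 7.31, 6.35 and 4.61% in siSFSWAP (-36.6 points, adjusted p = 4.7e-10). The exon from the first internal acceptor to the same donor (658 nt) went from 39.0% ± 2.12 to 5.38% ± 1.29 (-33.6 points, adjusted p = 9.6e-10). The siSFSWAP libraries lay far below the siNT libraries in both. The 136 nt exon had 123, 57 and 48 inclusion reads in siNT and 68, 43 and 42 in siSFSWAP, beside the 89, 38 and 30 and the 431, 317 and 435 skipping reads given above, so the skipping reads differed the most.

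The other 3 called events were long stretches that open at the acceptor of the last exon and end at the internal donor or at either of 2 others before it (1346, 1283 and 917 nt). Their inclusion went from 96.4% in siNT to between 69.7 and 70.1% in siSFSWAP, with changes of -26.3, -26.6 and -26.6 points. In all 3, at least 97.8% of the inclusion reads in every library were the ordinary junction from the stop codon exon to the last exon, which does not show where the stretch ended. Without the correction for read positions these 3 changes were -15.8 to -16.0 points and were not called. The correction allows for read positions at both ends of a stretch, while nearly all of these reads came from a single end. These 3 calls therefore depend on it.

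A further 3 exons inside the intron passed the adjusted p and not the change threshold. They were the 73 nt exon from 26191056 to 26191128 (19.3% ± 5.60 to 2.18% ± 0.65, adjusted p = 6.1e-06), the 595 nt exon from 26191056 to 26191650 (11.4 to 1.39%, adjusted p = 4.0e-05) and the 229 nt exon from 26191422 to 26191650 (6.95 to 1.08%, adjusted p = 0.0011). All 3 were low in siNT already, and they too were read against the skipping junction to the distal acceptor. Measured between other ends, the same stretches stayed close. The 229 nt exon joined to the exon at 26191128 was at 26.8 and 30.1%, and the 1346 nt stretch with another downstream end was at 99.7% in both groups. The 38 nt exon at the start of the last exon (26192301 to 26192338), read against the junction to the second internal acceptor, was at 98.4 and 98.3% (adjusted p = 0.75).

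To relate the intron to the exon within it, reads of the region were shared among 3 forms, each divided by the number of junctions it offers. With the exon event that has the most reads (the 1346 nt stretch), the intron was kept in 10.7% ± 0.83 of siNT and 9.44% ± 0.45 of siSFSWAP. The exon form had 86.2% ± 0.73 and 63.5% ± 4.20. At least 97.8% of its reads in every library were the ordinary junction to the last exon, so this form does not show an exon that ends at the internal donor. The region was spliced out whole in 3.20, 3.26 and 3.06% in siNT and 23.1, 26.3 and 31.7% in siSFSWAP, 23.9 points higher in the mean. These shares are raised, because the ordinary reads were divided by 2 though they came from a single junction. Among junction reads of the donor, the distal acceptor took 1.83% ± 0.05 in siNT and 17.7% ± 3.33 in siSFSWAP. With the 136 nt exon in place of the 1346 nt stretch, the intron was kept in 65.8 and 24.9% and the exon included in 14.6 and 4.54%. The region was then spliced out whole in 19.6% ± 1.52 and 70.5% ± 4.04. The split with the 136 nt exon leaves out the junction to the ordinary last exon, so its shares are of the remaining reads only. That junction took 97.2% ± 0.05 of the junction reads of the donor in siNT and 81.3% ± 3.29 in siSFSWAP. With either exon the form that grew was the one without intron and exon. For the introns to the first and second internal acceptors (844 and 1366 nt), which also contain exons, the forms differed by -4.00 to 3.91 points between groups. These shares share reads with the tests above and were not tested themselves.

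The other HNRNPA2B1 introns past the stop codon differed less. The 532 nt intron from the internal donor to the distal acceptor was kept at 47.8, 37.0 and 44.1% in siNT and 60.9, 61.8 and 62.0% in siSFSWAP (43.0% ± 5.50 to 61.6% ± 0.58). Its change of 18.6 points had an adjusted p of 0.048 and missed the change threshold, and without siNT a it was 21.0 points with an adjusted p of 0.0010, past both. With limma on log2 odds its adjusted p was 0.20. The 156 nt intron before the last exon was kept at 7.40% ± 0.62 and 8.54% ± 0.43 (adjusted p = 0.18). The 293, 1172, 1366 and 844 nt introns were kept at over 92% in both groups, with adjusted p of 0.90 to 1.00, and the 650 nt intron had 1 skipping read in all.

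Outside the 3′ UTR no HNRNPA2B1 row was called. The 297 nt intron between exons 3 and 4 (26197018 to 26197314) was kept at 5.61% ± 0.33 and 5.33% ± 0.55 (adjusted p = 0.75). The 36 nt exon that distinguishes hnRNP B1 from A2 (26197831 to 26197866) had an inclusion of 16.5, 17.7 and 17.0% in siNT and 16.6, 17.5 and 22.5% in siSFSWAP (adjusted p = 0.32). The siSFSWAP c library was the highest there, and the other 5 lay within 16.5 to 17.7%.

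The called HNRNPA2B1 intron was 34.4% GC, against a median of 43.2% for the 216 tested introns within 20% of its length. TAGGG, a core motif that hnRNP A proteins are known to bind as UAGGG, was searched on both strands. The intron held 2 copies on the RNA strand and 1 on the other, and 71.8% of the 216 introns of like length held at least 1 copy on the RNA strand and 40.7% at least as many. This is a description of the sequence and no measure of binding.

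HNRNPA1 (ENSG00000135486.19, chromosome 12, plus strand, 54280726 to 54287087) encodes hnRNP A1, one of the most abundant nuclear RNA-binding proteins. Its called intron opens at the donor shown above and closes at the upstream acceptor (54283968 to 54284239, 272 nt), and it is annotated in 1 coding transcript. Inclusion was 48.3, 28.2 and 30.6% in siNT and 72.7, 70.8 and 67.3% in siSFSWAP, so the groups did not overlap, with siNT a highest among siNT. The means were 35.7% ± 11.0 and 70.3% ± 2.77, a change of 34.5 points with a quasi-binomial adjusted p of 0.019. It rested on a mean of 69 reads per library. The change was 30.8 to 40.9 points with each library left out, and it was still called in 2 of 6 (without siNT a and without siNT c), the adjusted p reaching 0.19.

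Here too the skipping reads were what differed. The junction to the upstream acceptor had 31, 56 and 43 reads in siNT and 9, 7 and 9 in siSFSWAP, or 12.3 ± 7.14 and 2.47 ± 0.43 RPM. Boundary reads were 11.7 ± 3.37 and 11.6 ± 0.77 RPM. The upstream acceptor was a minor site in either group, with 0.220, 1.21 and 1.05% of the reads to both acceptors in siNT and 0.0971, 0.133 and 0.140% in siSFSWAP. The downstream acceptor, 18 nt away, had 4050 to 14036 reads in siNT and 5262 to 9263 in siSFSWAP. The 290 nt intron that ends there was kept at 1.52% ± 0.12 and 1.36% ± 0.14 (adjusted p = 0.79). The boundary reads of both introns share the donor end.

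The other HNRNPA1 introns past the stop codon of HNRNPA1-238 were not called. Around the 156 nt exon 8, the 188 nt intron was kept at 87.1 and 92.3% (adjusted p = 0.63) and the 204 nt intron at 33.8 and 30.2% (adjusted p = 0.51). Introns of 114, 120 and 30 nt that lie inside exons were kept at over 99% in both groups. An intron of 137 nt upstream of these (54282663 to 54282799) was kept at 93.0 and 91.2% (adjusted p = 0.87).

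Exon 2 of HNRNPA1 (54281386 to 54281502, 117 nt) passed the adjusted p with a small change. It was included at 99.95, 99.86 and 99.89% in siNT and at 99.24, 98.90 and 98.57% in siSFSWAP (-0.996 points, adjusted p = 0.00011, and 0.064 with limma on log2 odds). The junction that skips it had 3, 3 and 2 reads in siNT and 31, 28 and 43 in siSFSWAP, beside 3730 to 12573 inclusion reads, so the groups did not overlap. Forms of this exon of 114 and 150 nt went from 99.6 to 95.5% and from 99.9 to 98.6%, both against the same skipping reads and with an adjusted p of 0.064 by limma. The exon has the acceptor tccccctccccccactctAGtct (chr12:54281366-54281388) and the donor gtgGTaaga (chr12:54281500-54281508), shown because the skipping junction uses neither. A 71 nt exon within the last exon (54286662 to 54286732) was included at 93.8% ± 1.82 and 97.2% ± 0.80 (adjusted p = 0.56).

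**Figure D4:**
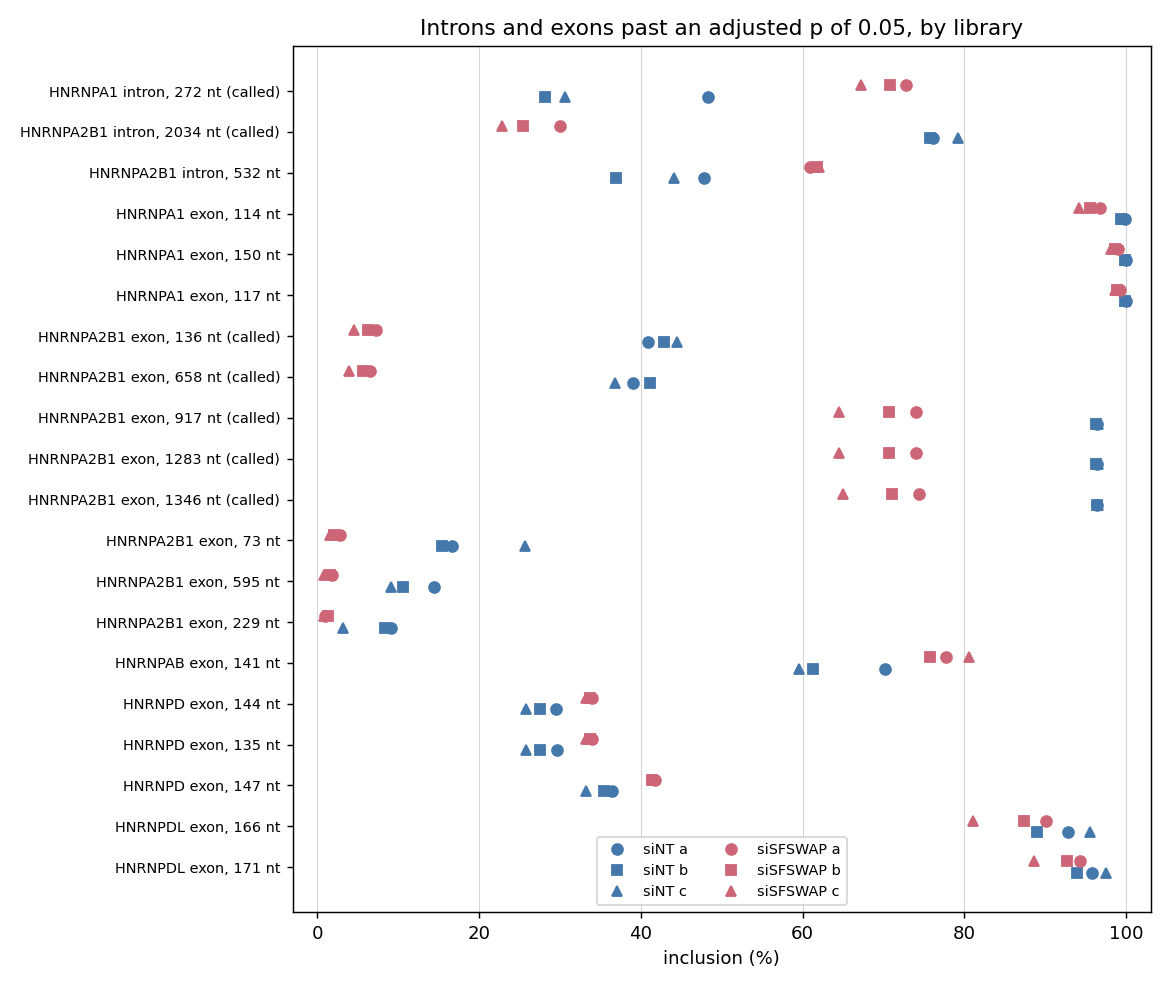
Inclusion (%) in each of the 6 libraries for the 20 introns and exon events of the 6 genes that passed an adjusted p of 0.05, blue for siNT and red for siSFSWAP, with 1 marker shape per library. Those also past the change threshold are marked as called. The siNT and siSFSWAP points lie far apart in the called HNRNPA2B1 and HNRNPA1 rows, and overlap in the 2 HNRNPDL exons.

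HNRNPAB and HNRNPD each have a cassette exon 7 in the glycine-rich region toward the end of the protein, and these exons mark known isoforms. HNRNPAB (ENSG00000197451.12, chromosome 5, plus strand) included exon 7 (178210132 to 178210272, 141 nt) at 70.2, 61.3 and 59.5% in siNT and 77.8, 75.7 and 80.6% in siSFSWAP. All siSFSWAP libraries lay above all siNT libraries, with siNT a the nearest. The change of 14.3 points (63.7% ± 5.75 to 78.0% ± 2.45) had an adjusted p of 0.00074, at most 0.040 with any 1 library left out, and it missed the change threshold. With limma on log2 odds its adjusted p was 0.33. Inclusion reads were 39.5 ± 4.45 and 49.1 ± 1.19 RPM of the skipped exon table and skipping reads 11.2 ± 1.58 and 6.96 ± 1.10.

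HNRNPD (ENSG00000138668.19, chromosome 4, minus strand), which encodes AUF1, a regulator of mRNA stability, also had a higher inclusion. Its exon 7 (82356537 to 82356683, 147 nt) was included at 36.5, 35.4 and 33.3% in siNT and 41.8, 41.4 and 41.6% in siSFSWAP, without overlap. The change was 6.55 points (adjusted p = 0.00088, at most 0.027 with any 1 library left out, and 0.69 with limma on log2 odds). Forms of this exon of 144 and 135 nt both went from 27.6 to 33.7% (adjusted p = 0.0033, 0.063 without siSFSWAP a and 0.68 with limma), against the same skipping reads. The splice sites of both exons are shown side by side for comparison.
HNRNPAB exon 7 acceptor (chr5:178210112-178210134, plus strand): gtgccctgctccccccacAGgtc
HNRNPAB exon 7 donor (chr5:178210270-178210278, plus strand): acaGTaagt
HNRNPD exon 7 acceptor (chr4:82356681-82356703, minus strand): aacctattaatgtgctgcAGgcc
HNRNPD exon 7 donor (chr4:82356531-82356539, minus strand): gcaGTaagt
The 6 intronic bases after the exon were the same in both, and the 20 bases before it held 14 pyrimidines in HNRNPAB and 10 in HNRNPD.

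The first intron of HNRNPAB (178204741 to 178204814, 74 nt) varied widely among the siNT libraries. It was kept at 45.5, 59.9 and 73.7% in siNT and 39.7, 40.9 and 39.3% in siSFSWAP (-19.7 points, adjusted p = 0.089). The siSFSWAP libraries were all lower than the siNT libraries, and siNT a was the siNT library nearest to them. With siNT a left out it passed both thresholds (-26.8 points, quasi-binomial adjusted p = 8.5e-24), although siNT b and c still differed, at 59.9 and 73.7%. That p rests on a dispersion moderated across all tested introns, so it does not measure the spread of this intron alone. Boundary reads were 87.7, 145 and 177 RPM in siNT and 71.9, 82.8 and 62.8 in siSFSWAP.

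The 3′ UTR intron of HNRNPD (82355002 to 82355303, 302 nt, in 3 NMD transcripts) was kept at 59.2, 47.5 and 54.3% in siNT and 70.5, 57.9 and 52.9% in siSFSWAP. The groups overlapped and the difference of 6.78 points had an adjusted p of 0.72 on a mean of 70.7 reads. HNRNPDL (ENSG00000152795.18, chromosome 4, minus strand), a relative of HNRNPD, had 1 intron past its stop codon (82425795 to 82426036, 242 nt), with 3 skipping reads in all 6 libraries, so it was not tested. Exon 6 of HNRNPDL (82426463 to 82426633, 171 nt) was included at 95.8, 93.9 and 97.5% in siNT and 94.3, 92.6 and 88.6% in siSFSWAP. The groups overlapped, and the change of -3.91 points (adjusted p = 0.030) did not hold with every library left out (adjusted p up to 0.29). A 166 nt form of the exon was at 92.4 and 86.2% (adjusted p = 0.033). With limma on log2 odds these were 0.48 and 0.46.

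HNRNPA3 (ENSG00000170144.21, chromosome 2, plus strand), a paralog of HNRNPA1 and HNRNPA2B1, had no event past the adjusted p. Its intron past the stop codon (177219315 to 177219407, 93 nt) was kept at 3.41% ± 0.22 and 4.00% ± 0.60 (adjusted p = 0.59), and an 82 nt form of it had 1 skipping read in all. The 83 nt intron between exons 5 and 6 was kept at 5.69 and 6.15% (adjusted p = 0.81). Exon 8 (177217705 to 177217845, 141 nt) was included at 88.9% ± 1.36 and 92.4% ± 3.51 (adjusted p = 0.32).

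A few exons were added after their values were seen, because they mark known isoforms or lie past the stop codon. Exon 8 of HNRNPA1 (54283079 to 54283234, 156 nt), which makes the longer protein A1B, was included at 4.51 and 4.72% (adjusted p = 0.65), and exon 2 of HNRNPD (82371528 to 82371584, 57 nt) at 88.2 and 84.8% (adjusted p = 0.28). The 107 nt 3′ UTR exon of HNRNPD (82354895 to 82355001) was included at 1.09 and 0.787% (adjusted p = 0.59). The 105 nt 3′ UTR exon of HNRNPDL (82425563 to 82425667, in 3 NMD transcripts) was included at 3.34, 5.42 and 7.72% in siNT and 6.74, 6.13 and 7.24% in siSFSWAP (adjusted p = 0.16). The long 3′ exon of HNRNPA3 (177219408 to 177221976, 2569 nt) was at 97.3% ± 0.60 and 95.3% ± 0.27 (adjusted p = 0.057). None of these passed the test, and no exon past the stop codon of the other 5 genes was called.

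Spliced reads per gene were compared as a rough measure of how much spliced RNA each gene had. They are the junction reads summed over the exons of a gene, in CPM over such reads, and both the splicing of a gene and the amount of its RNA set them. A junction that skips several exons can be counted for each of those exons. In bulk RNA fewer cells of a type and less RNA per cell cannot be told apart. HNRNPA1 had 6073, 4533 and 4553 CPM in siNT and 6620, 6271 and 6615 in siSFSWAP (log2 change 0.38, SE 0.10, limma adjusted p = 0.013). It was above siNT in all 3 siSFSWAP libraries, with siNT a nearest, and the call was lost without siNT b, siNT c or siSFSWAP c (adjusted p 0.052 to 0.062). HNRNPA3 had 828, 770 and 727 CPM in siNT and 675, 632 and 556 in siSFSWAP (log2 change -0.32, SE 0.083, limma adjusted p = 0.013), and 5 of 6 such fits kept the call, that without siSFSWAP c being the exception (adjusted p = 0.063). Among all 10780 genes tested 14.7% were higher and 15.6% lower at this threshold.

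HNRNPA2B1 had 3515 ± 301 CPM in siNT and 3872 ± 51.4 in siSFSWAP (log2 change 0.14, limma adjusted p = 0.12), a level at 110% of siNT. The 10.2-fold rise of 1 junction in its 3′ UTR is part of this level, because that junction skips several exons and is counted for more than 1. The level without that junction was not computed. Without siNT a the log2 change of HNRNPA2B1 was 0.21 with a limma adjusted p of 0.0013. HNRNPAB, HNRNPD and HNRNPDL had log2 changes of -0.04, 0.06 and -0.15 with adjusted p of 0.70, 0.54 and 0.26. These levels are not corrected for gene length, so they are not compared between genes.

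**Figure D5:**
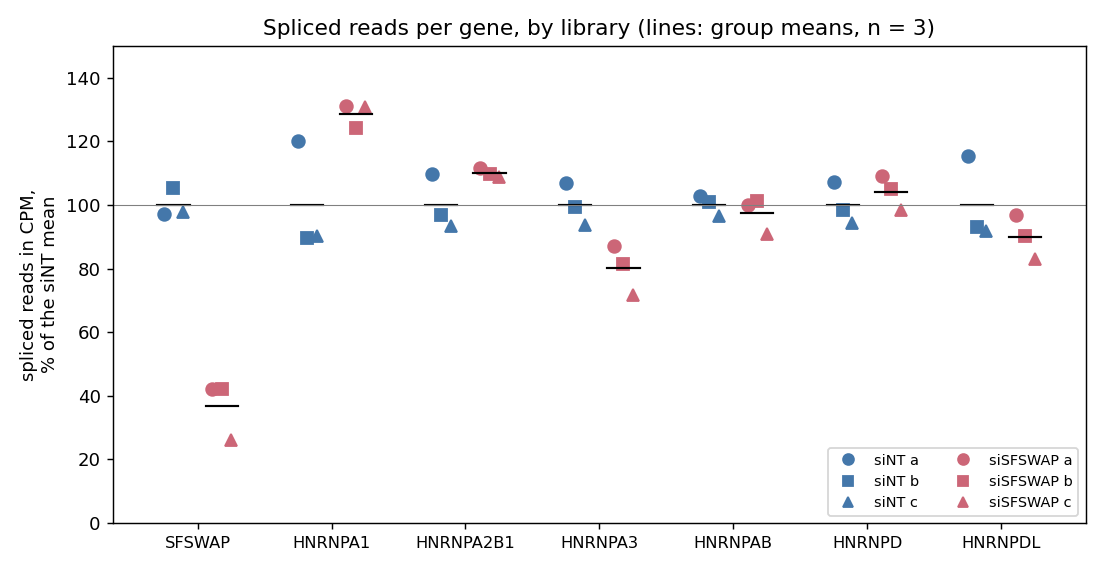
Spliced reads in CPM as a percentage of the siNT mean, for SFSWAP and the 6 genes, 1 point per library with lines at the group means (n = 3). SFSWAP drops to 36.8% of siNT, HNRNPA1 sits above and HNRNPA3 below 100 in all 3 siSFSWAP libraries, and siNT a is the highest siNT library in all 6 family genes.

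A list of 26 other hnRNP and related genes served as a background of like function, and 22 of them had rows. Of their 70 tested introns, in 17 genes, 1 was called lower and 1 higher, and of their 309 tested exon events 4 in 2 genes were called lower and 2 in 1 gene higher. These are 1.43 and 1.43% of the introns and 1.29 and 0.647% of the exon events, against 1.61 and 0.148% and 0.655 and 1.44% over all tested rows. The median changes were -0.05 points for introns and 0.06 points for exon events. By spliced reads 3 of the 22 were lower and 5 higher, with log2 changes of -0.73 to 0.31 and a median of -0.03, where 15.6% of all genes were lower and 14.7% higher.

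Many processed pseudogenes exist for some of these genes, and the sources used here do not say how reads that match several places were treated. By name, GENCODE lists 74 pseudogenes of HNRNPA1, 16 of HNRNPA3, 4 of HNRNPDL, 2 of HNRNPD, 1 of HNRNPAB and 0 of HNRNPA2B1. Junction reads of HNRNPA1 and HNRNPA3 may therefore be short of reads that also match a copy, and this was not tested.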

How the data were processed

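Polyadenylated RNA of HEK293A-TOA cells, 3 siNT and 3 siSFSWAP samples, was read from the deposited retained intron and skipped exon tables. Per the labels, adapters were removed with cutadapt 1.9.1 and reads mapped to GRCh38 with STAR 2.7. The authors then ran rMATS on junction reads. The deposited values are other than expression units, namely lists of 3 raw junction counts per group for each form, with effective lengths in positions. The tables number the groups. The first was taken as siNT from the definition of the inclusion difference in the study's text, checked with SFSWAP reads. Lists carry no replicate numbers. The authors' inclusion levels, p-values, FDR and differences were not used.

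Inclusion was computed from counts divided by effective lengths. Tested events had at least 20 reads per library on average, at least 5 reads of each form and reads in at least 2 libraries per group. The two-sided quasi-binomial F test had its dispersion moderated with limma 3.58.1 (R 4.3.3) and floored at 1, with Benjamini-Hochberg adjustment over each table. Spliced reads (skipped exon table, 1 event per exon) were compared with limma on log2(CPM + 0.5) over 10780 genes. An exact permutation test of 3 against 3 cannot go below 0.1, so none was run. P-values measure the spread between these samples, which the labels call biological replicates. That spread is moderated across events or genes, so a very small p need not reflect the spread of a single event. Splice sites and positions came from GRCh38 and GENCODE release 44, and 98.1% of tested introns had GT and AG ends.

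Named with values were the called events, introns past a stop codon with the exons in them, and per gene and table the event with the most reads at a siNT inclusion of 5 to 95%. Events past the adjusted p alone were added. Members and lists were chosen with earlier results of these data known. Alternatives were each library left out, means of at least 50 or 0 reads, a change of at least 10 points, limma on log2 odds, no dispersion trend, no effective lengths and, for spliced reads, another scaling, a pseudocount of 2 and no filter.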

Additional observations from a re-analysis of the deposited data

How the results depend on the processing

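The count of called family introns was 2 and was 1 to 4 with a library left out. Without siNT a the 532 nt HNRNPA2B1 intron and the first HNRNPAB intron were called besides, and without siNT b, siSFSWAP a, siSFSWAP b or siSFSWAP c the HNRNPA1 intron was not. With limma on log2 odds it was 0, with 5 of 39 introns at an unadjusted p under 0.05, and limma called 0 of all 10155 tested introns, with 1671 at an unadjusted p under 0.05. The HNRNPA2B1 intron then had an adjusted p of 0.060 and the HNRNPA1 intron 0.13. The count of called family exon events was 5 with each library left out and 3 without effective lengths, where 3 long HNRNPA2B1 stretches missed the change threshold and the 73 nt exon passed it (-25.4 points). Elsewhere it was 5 to 7. The count of family genes called by spliced reads was 2 and was 0 to 3 with a library left out, the 0 being limma without siSFSWAP c, with 2 of 6 genes at an unadjusted p under 0.05. The share of the HNRNPA2B1 region spliced out whole was 23.9 points higher, 21.5 to 25.9 with a library left out, and 10.7 points higher when all 8 exon events within the intron were summed. Both shares count the ordinary junction to the last exon as exon inclusion, so their size depends on how it is weighted. None of these results reversed. Over all tested introns the count called lower was 163 and was 498 without siNT a and 14 without siSFSWAP a, and the count called higher was 15 and was 1 to 44. Over all tested exon events 315 were called lower (133 without siSFSWAP c, 96 with limma) and 692 higher (163 without siSFSWAP a, 1509 without siNT a, 181 with limma). Of the family exon events past the adjusted p but not the change threshold, those of HNRNPA1, HNRNPAB, HNRNPD and HNRNPDL and the 229 nt HNRNPA2B1 exon did not pass it with limma on log2 odds (0.051 to 0.69). No paired analysis was possible because the lists of counts carry no replicate numbers. Among the tested introns named here the HNRNPA1 intron (mean of 69 reads) and the HNRNPD 3′ UTR intron (70.7) had the fewest reads, and introns with under 5 reads of 1 form were not tested.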
